A study of Mus musculus with 6 samples.

Results

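The receptors for bone morphogenetic proteins (BMPs) and activins were examined in the apical mesenchyme of mouse lower first molars. The 8 genes were taken by symbol from the deposited expression table: Bmpr1a, Bmpr1b, Acvr1, Acvrl1 and Acvr1b, which encode type I receptors, and Bmpr2, Acvr2a and Acvr2b, which encode type II receptors. All 8 were found among the 25899 gene rows. Tissue came from pups at postnatal day 7.5 on a mixed C57Bl6/129S6/SvEvTac background, and 3 mutants (Gli1-CreER;Bmpr1afl/fl) were set against 3 littermate controls (Bmpr1afl/fl). Both groups carry the loxP-flanked Bmpr1a alleles, and only the mutants carry CreER, a recombinase that needs tamoxifen and here acts in Gli1-expressing cells. Neither the tamoxifen schedule nor whether controls were given it is stated in the sources used here. The 4 libraries of controls 1 and 2 and mutants 1 and 2 are from litter 1, and the 2 libraries numbered 3 are from litter 2. The question asked of these genes was how much RNA of each receptor the tissue holds and whether it differs once the gene of 1 receptor is a target of deletion.

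BMPs, activins and related ligands of the TGF-beta superfamily bind a complex of type I and type II receptors, both of which are serine/threonine kinases. The constitutively active type II receptor phosphorylates the type I receptor, which then phosphorylates receptor-regulated Smad proteins. Bmpr1a (ALK3), Bmpr1b (ALK6), Acvr1 (ALK2) and Acvrl1 (ALK1) pass the signal to the BMP-class Smads, and Acvr1b (ALK4) passes it to the activin-class Smads. Bmpr2 serves BMPs, while Acvr2a and Acvr2b are shared between activins and BMPs. In teeth, BMP signalling passes between epithelium and mesenchyme and takes part in crown and root formation.

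On mm10, the build named in the submitters' processing notes, Bmpr1a lies at chr14:34410734-34503341 on the minus strand. Its longest GENCODE M21 transcript has 13 exons and 5956 bases. Bmpr1b lies at chr3:141837136-142169425 (minus strand), Bmpr2 at chr1:59763400-59879014 (plus) and Acvr2b at chr9:119402118-119434995 (plus). Acvr2a (chr2:48814109-48903269, plus) and Acvr1 (chr2:58388644-58567157, minus) share a chromosome. Acvrl1 (chr15:101128522-101145336) and Acvr1b (chr15:101174067-101213684) are neighbours on the plus strand with 28.7 kb between them. Exons on the opposite strand overlap those of Bmpr1a (Gm17110, mean 4.23 RPM), Acvr2a (Orc4, mean 28.9 RPM) and Acvrl1 (Gm16031, mean 0.0386 RPM). RPM stands for reads per 1000000 mapped reads. Whether the counting used strand is not given in the sources used here, so reads in those overlaps cannot be told apart.

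Sequences at 1 annotated start each of Bmpr1a, which had the highest level of the 8, and Bmpr1b, which had the lowest, are shown because they differ in CG content. Each run is the 109 bases just 5′ of the first exon of the gene's longest GENCODE transcript, read 5′ to 3′ on the minus strand from RefSeq promoter windows of build GRCm38.p6. Both genes have other annotated starts farther 5′, so both runs lie within the gene spans given above, in introns of those longer-reaching transcripts, and which start the tissue uses is not known from these data. Capitals mark CG dinucleotides, which read the same on both strands.
Bmpr1a: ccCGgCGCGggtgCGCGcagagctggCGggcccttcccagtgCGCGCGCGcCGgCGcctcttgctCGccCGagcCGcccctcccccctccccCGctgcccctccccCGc
Bmpr1b: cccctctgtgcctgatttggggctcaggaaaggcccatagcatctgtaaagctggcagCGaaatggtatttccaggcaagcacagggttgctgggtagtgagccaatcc
The Bmpr1a run (chr14:34502688-34502796) holds 17 CG dinucleotides and the Bmpr1b run (chr3:141982265-141982373) holds 1. In the whole 300-base windows, Bmpr1a has 48, a count reached by 1.22% of the 32851 windows in the RefSeq table. Acvr2a has 54, Acvr1 and Acvr1b have 51 each, Acvr2b has 27 and Bmpr2 has 23. The 3 Bmpr1b windows have 5, 6 and 6, against a median of 7 over all windows. Windows were found for 7 of the 8 receptors; Acvrl1 had none. These sequences were not tested against expression.

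The libraries held between 15916045 and 20609420 reads on genes, so that 3 reads, the smallest level treated as detectable, were worth 0.0987 to 0.126 RPM. Dental mesenchyme markers were present in every library (7 of 7 genes; summed level 607 to 948 RPM in controls and 580.3 to 908 RPM in mutants). Muscle markers were near 0, with a summed level of at most 0.754 RPM. Enamel epithelium markers, which do not belong to mesenchyme, were far more uneven: their summed level ran from 2189 to 38891 RPM in controls and from 5212 to 48700 RPM in mutants (0 of 8 markers at 0). Control 3, mutant 1 and mutant 3 were the libraries rich in them. Mutant 3 stood apart in having the least odontoblast marker RNA (summed level 5017 RPM, where the rest ran from 15422 to 36534) and the least osteoblast marker RNA (175 RPM, the rest from 392 to 933). Control 3 stood apart in blood markers, at 1417 RPM, the rest running from 130 to 428. Cartilage markers ran from 18.3 RPM in mutant 2 to 63.5 RPM in mutant 3.

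Bmpr1a was the most abundant of the receptors, Acvr1 came next and Bmpr1b was close to absent. Because reads on a gene grow with its length, levels of different genes were compared per kb of the longest annotated protein-coding transcript. Over the 6 libraries, Bmpr1a was at 20.9 ± 2.74 RPM per kb (mean ± SD, n = 6 here) and Acvr1 at 14.4 ± 1.81. Acvr1b followed at 9.51 ± 2.40, Acvrl1 at 6.99 ± 1.62, Acvr2a at 4.36 ± 0.387 and Bmpr2 at 3.17 ± 0.305 RPM per kb. Acvr2b was at 0.873 ± 0.194 and Bmpr1b at 0.0296 ± 0.0199 RPM per kb. Thus 4 of the 5 type I receptors lay above all 3 type II receptors on this scale. Over both genotypes, Acvr1 stood at 69.0% of Bmpr1a, Bmpr2 at 15.1% and Acvr2b at 4.17%. In controls alone these shares were 62.5%, 14.2% and 3.81%. In mutants, where Bmpr1a is the target of deletion, they were 76.9%, 16.2% and 4.60%. The order of the group means was the same in controls and in mutants.

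Not every step in that order was wider than the spread between libraries. Bmpr1a exceeded Acvr1 in 6 of 6 libraries with no overlap of their ranges, and the same held for Acvr2a over Bmpr2, Bmpr2 over Acvr2b and Acvr2b over Bmpr1b. Acvr1 also exceeded Acvr1b in 6 of 6 libraries, although their ranges overlapped. Acvr1b was above Acvrl1 in 5 of 6, with overlapping ranges and an exact two-sided sign-flip permutation p of 0.156, where 6 libraries allow no p below 0.0312. The other 6 steps each gave that smallest p. The rank of each gene was the same per kb of exon union and per kb of coding sequence. Per coding kb, however, Acvr1 was above Acvr1b in 3 of 6 libraries (exact permutation p 0.406) and Acvrl1 above Acvr2a in 4 of 6 (exact permutation p 0.844), so these 2 steps rest on the length chosen. Per kb of exon union, each of these steps held in 5 of 6 libraries (exact permutation p 0.0625). The ranges of Acvr2a and Bmpr2 overlapped per coding kb, although Acvr2a was above Bmpr2 in 6 of 6 libraries there too. By coding length, Acvr1 stood at 39.9% of Bmpr1a, Bmpr2 at 16.8% and Acvr2b at 2.21%, over both genotypes. The annotation does not say which transcript ends the tissue uses.

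**Figure D1:**
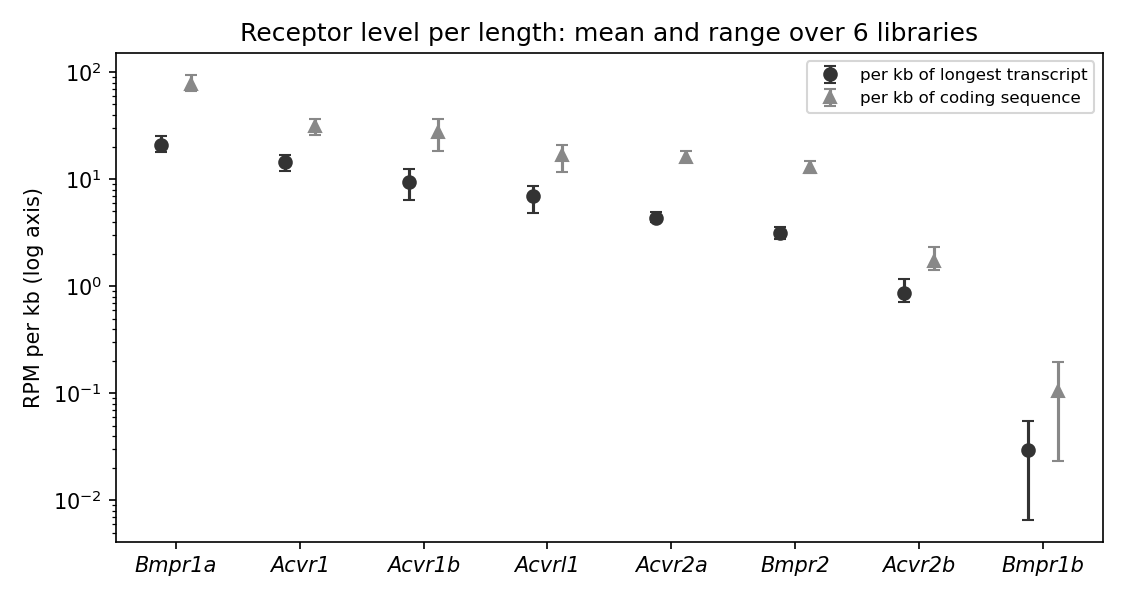
Level of each receptor in RPM per kb (log axis), per kb of longest transcript (circles) and per kb of coding sequence (triangles). Points are means over the 6 libraries and bars run from the lowest to the highest library; Bmpr1a leads and Bmpr1b is last on both scales.

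Bmpr1a, the receptor targeted in the mutants, was at 121, 139 and 149.5 RPM in controls 1 to 3 and at 108, 120.2 and 111 RPM in mutants 1 to 3. Every mutant library lay below every control, but mutant 2 and control 1 were nearly level. The fitted level in mutants was 0.83 of that in controls, with a 95% interval from 0.66 to 1.04 (log2 change -0.27, SE 0.14). By limma the unadjusted p was 0.091, and the Benjamini-Hochberg adjusted p over all genes tested was 1.00. The interval thus includes no change. Without control 3 the change was -0.20, and without mutant 3 it was -0.26. Counts over the whole gene cannot separate deleted from intact transcripts, since the other exons of a recombined allele can still be transcribed.

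Some dental mesenchyme markers, genes of the tissue that was dissected, had lower values in mutants, as Bmpr1a did. Fitted changes were below 0 for 5 of the 7 markers, and 2 of 7 had an unadjusted p under 0.05 (limma), against 1.05% of all genes. Lhx8, a LIM homeobox factor of the dental mesenchyme, was at 19.3, 19.5 and 22.6 RPM in controls, against 13.4, 14.6 and 16.0 RPM in mutants, without overlap (change -0.46, limma unadjusted p 0.018, adjusted p 1.00). The related Lhx6 had a change of -0.54 (unadjusted p 0.0431) with overlapping groups, and Twist1, a mesenchymal transcription factor, one of -0.38 (unadjusted p 0.0533). Its groups were separated only by a near tie in litter 2, at 60.06 RPM in control 3 and 60.01 RPM in mutant 3. Msx1 and Barx1 had changes of 0.052 and 0.00075. The mean log2(RPM + 1) of the 7 markers was 6.23, 6.14 and 5.88 in controls 1 to 3 and 5.53, 5.92 and 6.08 in mutants 1 to 3, so the groups overlapped. Of the 3 osteoblast markers, 1 had an unadjusted p under 0.05 (limma): Ibsp (bone sialoprotein, change -1.41, unadjusted p 0.0195), whose groups did not overlap. Control 3 was its highest library, at 154 RPM beside 35.5 and 65.9 RPM in controls 1 and 2. The Ibsp change was -0.84 in litter 1 and -2.54 in litter 2. Bglap (-0.27, unadjusted p 0.761) and Sp7 (-0.45, unadjusted p 0.0818) had overlapping groups. The part of tissue makeup in the Bmpr1a values was not tested.

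Among the receptors that reached the mean of 1 RPM required for testing (7 of 8; Bmpr1b did not), 0 had an adjusted p under 0.05, as did 0% of the 14444 genes tested. At an unadjusted p under 0.05 there were likewise 0 of 7, against 1.05% of all genes. The groups did not overlap for 1 of 7, Bmpr1a, against 2.64% of all genes, and 1.67% of all genes did not overlap and were lower in mutants. The fitted change was below 0 for 3 receptors (Bmpr1a, Bmpr2 and Acvrl1) and above 0 for 4, and 54.4% of all genes lay below 0. The median change of the 7 was 0.0092, beside -0.013 over all genes tested. A change here is the difference of group means of log2(RPM + 1), mutants less controls; the added 1 shrinks the change of low genes. Nothing in the labels says how the pups within a group are related beyond their litter, so p-values measure the spread between these libraries.

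**Figure D2:**
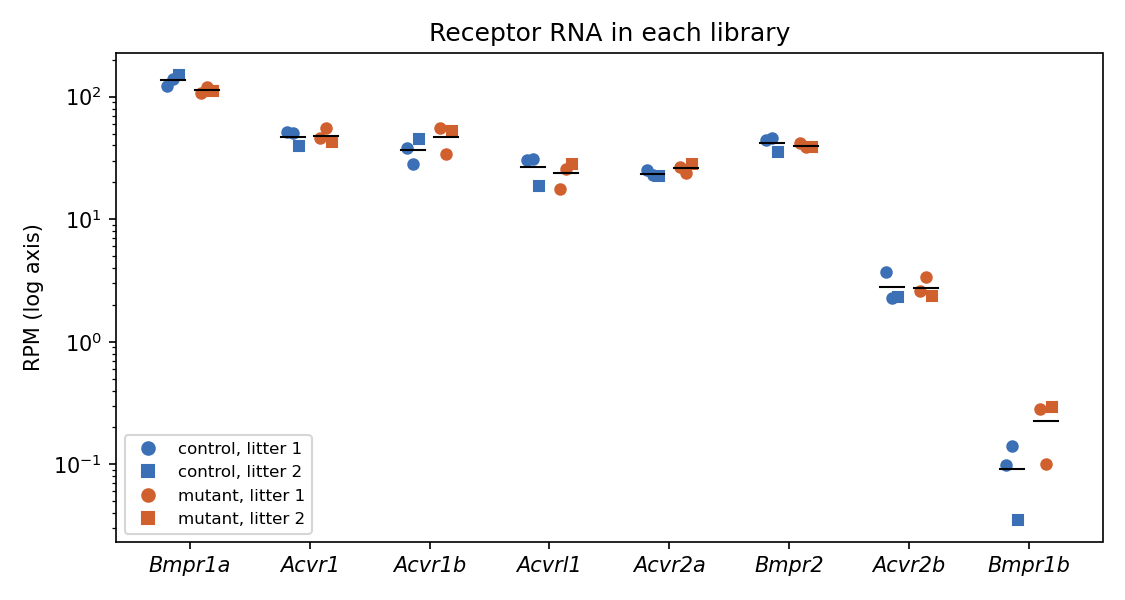
RPM of each receptor in every library (log axis), ordered by level per kb; circles are litter 1, squares litter 2, blue controls, orange mutants, and short black lines group means. The 3 Bmpr1a mutants, at 108 to 120.2 RPM, sit below the 3 controls, at 121 to 149.5 RPM, while the groups overlap for the other 7 receptors.

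Acvr1, the type I receptor whose activating mutations cause fibrodysplasia ossificans progressiva in people, showed the smallest difference among the abundant type I receptors. Its controls were at 51.5, 50.6 and 39.4 RPM and its mutants at 46.0, 55.3 and 42.7 RPM. The lowest library of each group was the one from litter 2, and the groups overlapped: mutant 2 lay above every control and control 3 below every mutant. The change was 0.027 (SE 0.16), with a 95% interval from 0.78-fold to 1.33-fold and an unadjusted p of 0.872. Its direction turned in 3 of 21 alternatives.

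Bmpr1b, which in limb and cartilage acts beside Bmpr1a in skeletal development, was barely detected. It had 3, 4 and 1 reads in controls 1 to 3 and 8, 3 and 7 reads in mutants 1 to 3. Those 26 reads stand against 21172 reads on Bmpr1a in the same libraries. As RPM, controls were at 0.0987, 0.140 and 0.0353 and mutants at 0.284, 0.0998 and 0.293, so mutant 2 lay below control 2 and the groups overlapped. The group sums were 8 reads (exact Poisson 95% interval 3.45 to 15.8) and 18 reads (10.7 to 28.4), intervals that cover counting error only and overlap. With the filter on low values removed, limma gave Bmpr1b a change of 0.16 with an unadjusted p of 0.0781 and a Benjamini-Hochberg adjusted p of 1.00. With so few reads these data do not decide whether the groups differ, and the level in both was near that of a few reads.

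Acvrl1, a receptor for BMP9 and BMP10 known mainly from endothelial cells, differed most between litters. Controls were at 30.6, 31.2 and 18.8 RPM and mutants at 17.7, 25.9 and 28.5 RPM. In litter 1 both mutants lay below both controls, and in litter 2 the mutant lay above its control. The overall change was -0.15 (SE 0.26; 95% interval 0.59-fold to 1.37-fold; unadjusted p 0.578), made of -0.51 within litter 1 and 0.57 within litter 2. Without mutant 1 the change was 0.048.

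Markers of endothelium (Pecam1, Cdh5, Kdr, Tek, Tie1 and Emcn) were present in every library. Their summed level was 292 to 374 RPM in controls and 240.2 to 354 RPM in mutants, with 0 of 6 markers at 0, and mutant 1 was lowest for both the markers and Acvrl1. In bulk tissue, fewer cells of a type and less RNA per cell cannot be told apart. The log2 level of Acvrl1 minus the mean log2(RPM + 1) of the 6 markers was -0.93 ± 0.30 in controls and -0.95 ± 0.23 in mutants (SD, n = 3), and an exact two-sided permutation test gave p = 0.9, where 3 against 3 allows no p below 0.1. Relative to these markers, the libraries still ranged from -1.25 in control 3 to -0.66 in control 2. This compares genotypes only, and the part of vessel content in the Acvrl1 values was not tested.

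Acvr1b, which carries activin and Nodal signals, had the largest fitted change of the 7 and the widest spread over libraries, with a highest-to-lowest ratio of 1.97. Its controls were at 37.8, 28.0 and 44.8 RPM and its mutants at 55.2, 34.2 and 52.3 RPM. Mutants 1 and 3 were the highest, control 2 the lowest, and mutant 2 lay below control 1, so the groups overlapped. The change was 0.34 (SE 0.24; 95% interval 0.86-fold to 1.88-fold; unadjusted p 0.197), with 0.41 within litter 1 and 0.22 within litter 2. Single libraries moved it: it was 0.16 without control 2 (unadjusted p 0.522), 0.22 without mutant 1 (0.454) and 0.56 without mutant 2 (limma, unadjusted p 0.0465 and adjusted p 1.00).

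The libraries with more Acvr1b were those with more enamel epithelium RNA, a pattern looked at after the values were seen. The mean log2(RPM + 1) of the 8 epithelial markers was 7.70, 6.24 and 9.90 in controls 1 to 3 and 10.24, 7.46 and 9.58 in mutants 1 to 3. Ordered from low to high, both measures ran control 2, mutant 2, control 1, and both placed mutant 1 highest; they differed only in the order of control 3 and mutant 3. Cdh1, the epithelial cadherin, was at 93.5, 15.5 and 218 RPM in controls, against 124, 61.9 and 221 RPM in mutants. With the epithelial mean as a covariate the Acvr1b change was 0.11 in place of 0.34 (unadjusted p 0.431). The same covariate left the Bmpr1a change at -0.27. The part of epithelial RNA in the Acvr1b values was not tested.

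**Figure D3:**
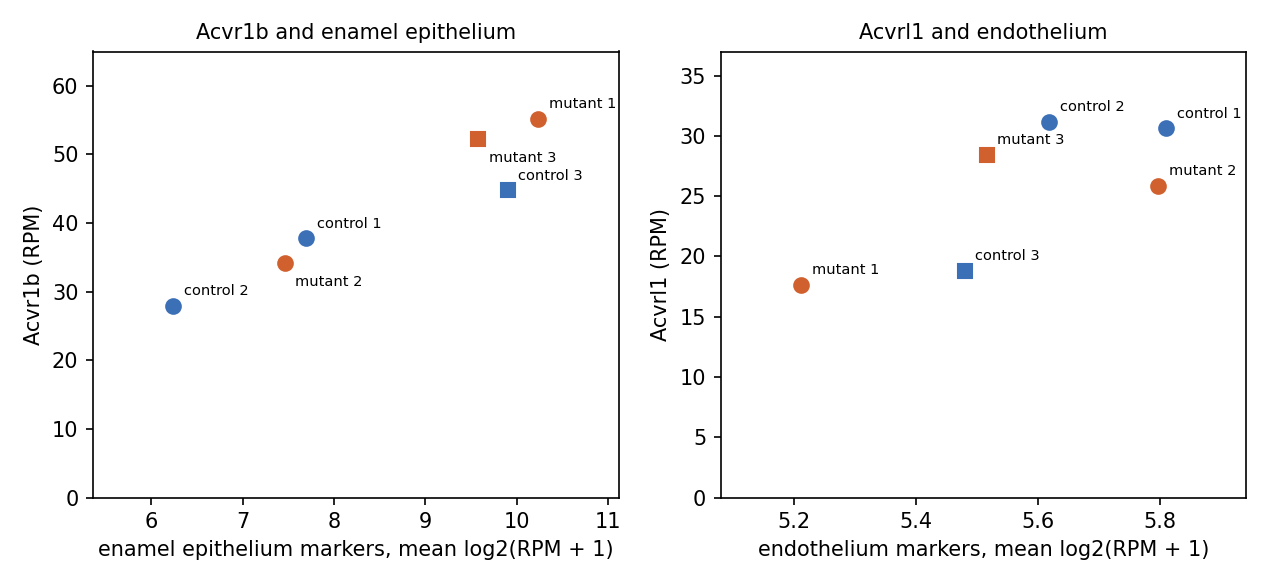
Left, Acvr1b (RPM) against the mean log2(RPM + 1) of 8 enamel epithelium markers; right, Acvrl1 (RPM) against that of 6 endothelial markers; each point is a library. Acvr1b is lowest in control 2, at 28.0 RPM, and highest in mutant 1, at 55.2 RPM, which are also the libraries with the lowest and highest epithelial means.

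Of the type II receptors, Bmpr2, the partner of the BMP type I receptors and the gene most often mutated in heritable pulmonary arterial hypertension, was at 44.5, 46.0 and 35.7 RPM in controls, against 41.6, 38.5 and 38.6 RPM in mutants. The mutants lay within the range of the controls. The change was -0.077 (SE 0.14; 95% interval of the log2 change -0.41 to 0.26; unadjusted p 0.605). Within litter 1 it was -0.17, both mutants lying below both controls, and in litter 2 it was 0.11. Without control 2 it was -0.0099 and without control 3 it was -0.19.

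Acvr2a, a type II receptor for activins and for several BMPs, was the steadiest receptor, with a coefficient of variation of 8.87% over the 6 libraries. Controls were at 25.2, 22.9 and 22.5 RPM and mutants at 26.5, 23.7 and 28.1 RPM. Mutants 1 and 3 lay above all controls and mutant 2 lay among them. The change was 0.14 (SE 0.14; 95% interval 0.88-fold to 1.38-fold; unadjusted p 0.337), and 0.086 without mutant 3.

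Acvr2b, the related receptor that also binds myostatin and GDF11, was the least abundant type II receptor. It was at 3.72, 2.27 and 2.33 RPM in controls, against 2.59, 3.36 and 2.35 RPM in mutants, from 56 to 113 reads per library. Control 1 was the highest and control 2 the lowest, with the mutants between them. The change was 0.0092 (SE 0.23; 95% interval 0.69-fold to 1.46-fold; unadjusted p 0.969), and it turned below 0 in 5 of 20 alternatives, quantile normalization among them (-0.030).

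**Figure D4:**
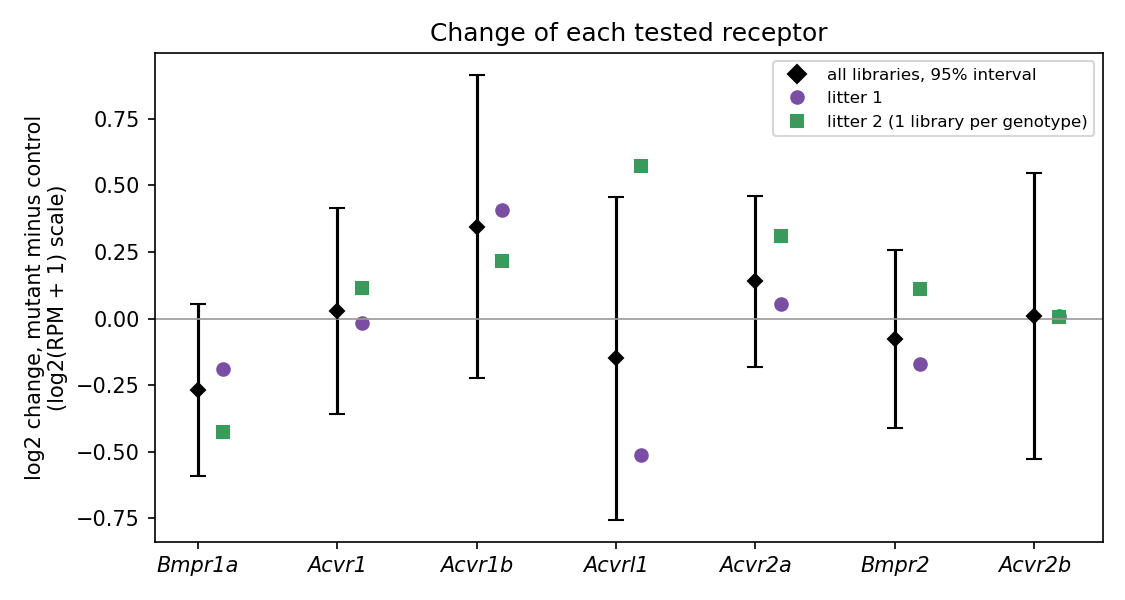
Difference between mutants and controls in log2(RPM + 1) for the 7 tested receptors: black diamonds with 95% intervals from limma over all 6 libraries, circles for litter 1 and squares for litter 2. Every interval includes 0, and the litters are farthest apart for Acvrl1, at -0.51 and 0.57.

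The genotype difference was compared between litters by a litter-by-genotype term in limma. The largest such difference among the receptors was that of Acvrl1, 1.08 (limma, unadjusted p 0.0279 and Benjamini-Hochberg adjusted p 0.90). It was the 1 receptor of 7 with an unadjusted p under 0.05 for this term, against 5.06% of all genes. For 2 receptors of 7, Acvrl1 and Bmpr2, the litter 1 groups did not overlap and the litter 2 difference had the opposite sign, as was so for 18.2% of all genes. The sign also differed for Acvr1 (-0.017 and 0.12), whose litter 1 groups overlapped. Bmpr1a was lower in mutants in both litters, by a change of -0.19 in litter 1 and -0.43 in litter 2. With only 1 library of each genotype in litter 2, the litter cannot be told apart from the animal or its dissection.

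Relative to Bmpr1a in the same library, a ratio that is free of library scaling, the mean log2 ratio of each of the 7 other receptors was higher in mutants, and the groups overlapped for each. Acvr1 reads were 42.5%, 36.4% and 26.3% of Bmpr1a reads in controls and 42.7%, 46.0% and 38.5% in mutants, a log2 difference of 0.30 (exact two-sided permutation p 0.2). Acvr1b was at 31.2%, 20.1% and 30.0% in controls and 51.3%, 28.5% and 47.1% in mutants (log2 difference 0.62, exact permutation p 0.3). For Acvr2a the percentages were 20.9, 16.5 and 15.0 in controls and 24.6, 19.7 and 25.3 in mutants (log2 difference 0.42, exact permutation p 0.2). Control 3, which had the most Bmpr1a, had the lowest ratio to it for 6 of the 7 receptors; the exception was Acvr1b. Without control 3 the log2 differences were 0.10 for Acvr1, 0.31 for Acvr2a, 0.0079 for Bmpr2, 0.11 for Acvr2b, -0.19 for Acvrl1 and 0.99 for Bmpr1b, each smaller than with it or turned, and 0.71 for Acvr1b. Without control 1 they were 0.45 for Acvr1, 0.32 for Bmpr2, 0.60 for Acvr2b and 0.31 for Acvrl1.

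The remaining ratios differed less or were near the detection level. Bmpr2 was at 31.2% ± 6.67 of Bmpr1a in controls and 35.2% ± 3.35 in mutants (SD, n = 3; exact permutation p 0.5). Acvrl1 was at 20.1% ± 6.68 and 21.2% ± 4.61 (exact permutation p 0.8), and Acvr2b at 2.09% ± 0.853 and 2.44% ± 0.342 (exact permutation p 0.4). The Bmpr1b ratio rests on at most 8 reads per library and was 0.0686% ± 0.0402 in controls and 0.204% ± 0.105 in mutants (exact permutation p 0.2). All 7 ratios share Bmpr1a as denominator, so the lower Bmpr1a values of the mutants enter each of them and their common direction is not independent support. In litter 1 alone, the Acvrl1 ratio was lower in mutants (-0.34).

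**Figure D5:**
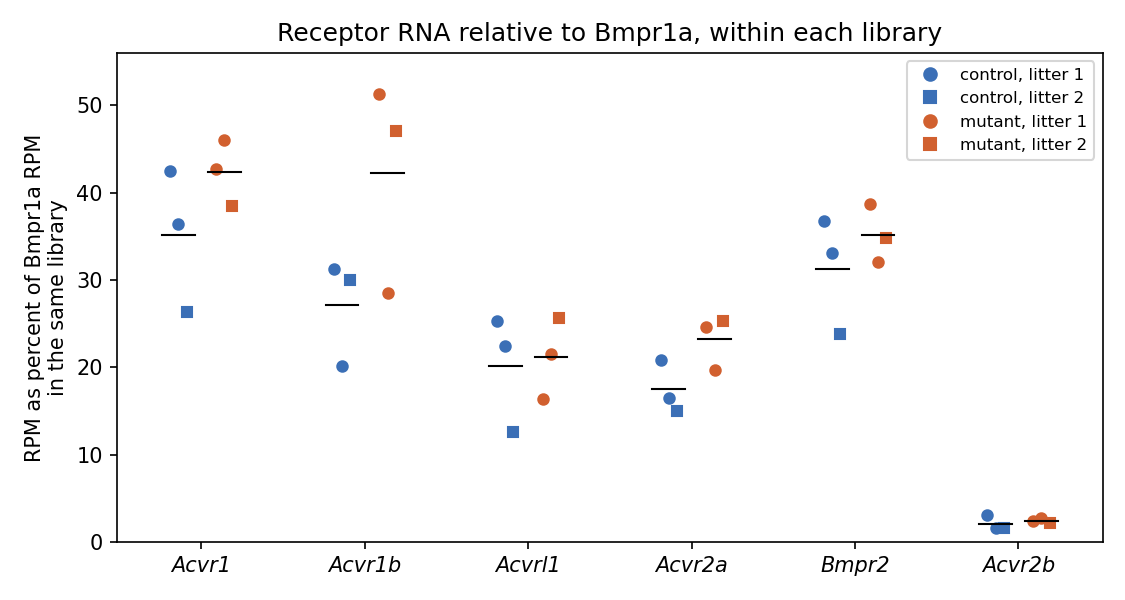
Reads of 6 receptors as a percent of Bmpr1a reads in the same library, not corrected for length; circles are litter 1, squares litter 2, blue controls, orange mutants, black lines group means. Groups overlap for each receptor, and the Acvr1b mutants run from 28.5% to 51.3% against 20.1% to 31.2% in controls.

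The 5 genes whose values over the 6 libraries lay closest to those of Bmpr1a were not receptors. By root-mean-square difference of centred log2(RPM + 1) values they were Rcn3 (0.0457), Setd7 (0.0514), Gopc (0.0636), Map4k1 (0.0651) and 2210418O10Rik (0.0663), all over 6 libraries. Rcn3 encodes a calcium-binding protein of the endoplasmic reticulum and Setd7 a lysine methyltransferase. Setd7 was at 83.1, 99.3 and 107 RPM in controls, against 73.1, 80.0 and 72.0 RPM in mutants. Since these genes were picked for following Bmpr1a over all 6 libraries, lower values in mutants come with the choice, and no test of them is given; in 3 of the 5 (Setd7, Map4k1 and 2210418O10Rik) the groups did not overlap, as in Bmpr1a itself. The closest receptor was Bmpr2, at 0.222, in place 4345 among the tested genes, and the farthest was Acvr1b, at 0.447, in place 12029. With 6 libraries and this many genes, close profiles arise readily, and the list is a description.

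Around the receptors, 56 other genes of the pathway were listed, of which 51 could be tested. None of the 51 had an unadjusted p under 0.05 (limma), against 1.05% of all genes, and 0 had an adjusted p under 0.05. The groups did not overlap for 2 of the 51, Tgfbr2 and Inhba, a share near the 2.64% of all genes. Fitted changes were above 0 for 22 and below 0 for 29, with a median of -0.034. This fit has no term for litter, which both genotypes share. With litter as a block, 3 of the 51 had an unadjusted p under 0.05, namely Gdf6 (0.0238), Smad7 (0.0272) and Grem1 (0.0296), each with an adjusted p of 1.00 (limma), and 292 of all 14444 genes did. With litter as a block Bmpr1a had an unadjusted p of 0.0807.

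Among the 4 other receptors of the superfamily, 4 of 4 fitted changes were above 0, with a median of 0.12. Tgfbr2, the type II receptor for TGF-beta, was at 168, 169.8 and 141 RPM in controls, against 195, 176 and 171 RPM in mutants, so all mutants lay above all controls (change 0.18, unadjusted p 0.253; 0.092 without control 3). Tgfbr1, its type I partner, had a change of 0.048 (unadjusted p 0.714). Amhr2, the type II receptor for anti-Müllerian hormone, was uneven, at 2.04, 19.6 and 1.62 RPM in controls and 5.19, 7.55 and 13.8 RPM in mutants (change 0.75, unadjusted p 0.368). Control 2 held most of its reads among controls, and without that library the change was 1.71 (limma, unadjusted p 0.00262 and adjusted p 1.00). It was 0.22 without control 3, 0.33 without control 1 and 0.41 without mutant 3, so it moved widely with single libraries.

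Of the 12 co-receptors and receptor regulators, 9 could be tested, 4 with changes above 0 and 5 below; Hfe2, Tdgf1 and Cfc1 had no reads in any library. Bambi, a pseudoreceptor that lacks a kinase domain and damps signalling, was at 205, 282 and 458 RPM in controls, against 194, 219 and 229.5 RPM in mutants. Control 3 stood far above the rest, and the groups overlapped (change -0.48, SE 0.29; unadjusted p 0.140; -0.17 without control 3 and -0.75 without control 1). Rgma, a BMP co-receptor of the repulsive guidance family, had a change of 1.33 (SE 0.65; unadjusted p 0.0772), from 3.15 to 20.9 RPM in controls and 12.3 to 40.6 RPM in mutants. Tgfbr3 (betaglycan), which presents ligand to the receptors, had a change of 0.38 (unadjusted p 0.103; 0.20 without control 3).

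The ligands gave 6 changes above 0 and 9 below among 15 tested of 17. Gdf6 was at 1.25, 6.33 and 36.1 RPM in controls, against 1.28, 0.699 and 1.47 RPM in mutants, so control 3 carries most of its change of -2.00 (SE 0.90; unadjusted p 0.060), and without that library the change was -0.94. Gdf5 and Inhbb, the latter an activin subunit, had changes of 0.98 and 0.80 (unadjusted p 0.122 and 0.145), which moved with single libraries. Inhba, the other activin subunit, was at 1.88, 1.92 and 2.08 RPM in controls, against 1.85, 1.53 and 1.42 RPM in mutants; it is named for its groups, which did not overlap, after its values were seen (change -0.19, unadjusted p 0.331).

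Extracellular antagonists gave 3 changes above 0 and 4 below. Grem1 was at 1.32 to 2.72 RPM in controls and 0.355 to 1.89 RPM in mutants (change -0.60, unadjusted p 0.113; -0.35 without mutant 1), Fst (follistatin, which binds activins) had a change of 1.05 (unadjusted p 0.125) and Bmper one of -0.42 (unadjusted p 0.166; -0.23 without control 3).

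Fst, Gdf5, Inhbb and Rgma shared 1 feature, looked at after the values were seen: each was lowest in control 2, the library with the least enamel epithelium marker RNA. Without control 2 their changes were 0.34, 0.47, 0.43 and 0.70, in place of 1.05, 0.98, 0.80 and 1.33. Without mutant 2 they were 1.39, 1.40, 1.28 and 1.78. With sample weights they were 0.47, 0.76, 0.089 and 0.45. The replicate block left the changes as they were, with unadjusted p values of 0.0071, 0.0053, 0.0024 and 0.0046 (limma, adjusted p from 0.73 to 0.82). With the epithelial mean as a covariate the changes were 0.55, 0.38, 0.43 and 0.90. The part of epithelial RNA in these values was not tested further.

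The 8 Smads gave 3 above 0 and 5 below, within -0.35 to 0.036. Lowest was Smad7, an inhibitory Smad that acts on the receptors, at 39.7, 43.8 and 33.9 RPM in controls and 34.1, 35.4 and 23.1 RPM in mutants (unadjusted p 0.121; change -0.16 without mutant 3). Of 8 BMP targets, 6 had changes below 0, with a median of -0.25, where 54.4% of all genes tested lay below 0. Among these, Id1 was at 82.9, 128 and 132 RPM in controls, against 73.9, 115 and 71.1 RPM in mutants, with overlapping groups. Its change was -0.40 (SE 0.25, limma unadjusted p 0.155). It was -0.62 without mutant 2 or without control 1, -0.28 without mutant 3 and -0.29 without control 3. In litter 1 alone it was -0.16, and with sample weights 0.012. Id2 had a change of -0.32 (limma unadjusted p 0.186), which was -0.017 with sample weights. Id4 went the other way, with a change of 0.21 (limma unadjusted p 0.230). The groups overlapped for Id2 and Id4.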

How the data were processed

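Per the labels' protocols, poly(A) RNA from the apical part of first mandibular molars was sequenced on an Illumina NextSeq. TopHat2 and mm10 are named in the submitters' processing notes; the counting program, annotation and normalization are not given in the sources used here. The authors deposited 1 table of log2 values for 25899 genes and 6 libraries, titled as normalized RPKM. Raised as powers of 2, 100% of values above the column minimum and up to 1000 reads were whole multiples of 1 step per column (tolerance 0.01 of a read), the same for all genes, so length had not been divided out and values were treated as RPM. The column minimum (0.9 of a read) was set to 0. The least chi-square per degree of freedom between 2 libraries was 23.2, so none was entered more than once.

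The 14444 genes averaging 1 RPM or more entered a limma 3.58.1 fit (R 4.3.3) of log2(RPM + 1) (eBayes with trend, no covariate, two-sided, Benjamini-Hochberg over all genes). The code was run on simulated reads with the same dispersion for every gene and no litter or tissue differences. That run says nothing about power in these data. The design foresaw normalized linear values, so the log2 values were first made linear. Ratios used exact permutation tests over 20 relabelings, and level steps exact sign flips. Lengths came from GENCODE M21 and promoter windows from RefSeq (GRCm38.p6). Coding length came from GENCODE in place of protein lengths. Figures used matplotlib 3.10.9.

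Named genes were the 8 receptors, up to 3 per pathway list by smallest unadjusted p, and the 5 profiles closest to Bmpr1a; Inhba was added after its values were seen. Members and lists were chosen with earlier results of these data known. Alternatives were other pseudocounts, filters, scalings, eBayes settings, sample weights, litter or replicate as a block, litter 1 alone, the epithelial covariate, voom on recovered reads, other lengths, and leaving out each library.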

Additional observations from a re-analysis of the deposited data

Results flagged for a closer look

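For Acvrl1 and Bmpr2, the 2 mutants of litter 1 were under the 2 controls, and in litter 2 the mutant was over its control. The change in litter 2 minus that in litter 1 was 1.08 for Acvrl1 (limma, unadjusted p 0.0279 and Benjamini-Hochberg adjusted p 0.90) and 0.28 for Bmpr2 (0.309 and 0.910). Neither passed adjustment, and 18.2% of all genes tested had litters on opposite sides in this way.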

How the results depend on the processing

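The Bmpr1a change stayed below 0 in 21 of 21 alternatives (-0.35 to -0.13), with an unadjusted p from 0.074 to 0.293. Bmpr2 (-0.19 to -0.0099), Acvr1b (0.11 to 0.56) and Acvr2a (0.032 to 0.21) also kept their direction in 21 of 21. Sample weights gave the Bmpr1a change nearest 0, -0.13. Acvr2b rests on 56 to 113 reads per library, the fewest among those tested, and Bmpr1b on at most 8. Same-numbered columns of the table (both genotypes are numbered 1 to 3) had deviations from group means that correlated at -0.033, 0.75 and 0.50. The columns numbered 3 are those of litter 2. These values do not settle whether the numbers pair the samples, and the main fit used no pairing. With the replicate block, Acvr1b had an unadjusted p of 0.0399 (limma; adjusted p 1.00) against 0.197 without it. Leaving out mutant 2 gave it 0.0465; these were the 2 of 21 alternatives under 0.05, and no receptor's adjusted p was under 0.05 in any. Acvr1 turned to -0.017 in litter 1 alone and Acvr2b to -0.030 with quantile normalization and -0.090 with sample weights. Acvrl1 turned to 0.048 with the epithelial covariate and its ratio to Bmpr1a to -0.34 in litter 1 alone; relative to endothelial markers (-0.027) it turned to 0.014 without Tek. Leaving out each library in turn gave ranges of -0.095 to 0.11 for Acvr1, -0.10 to 0.18 for Acvr2b, -0.38 to 0.048 for Acvrl1, -0.19 to 0.31 for the Acvrl1 ratio, -0.52 to 0.070 for Smad6, -0.56 to 0.056 for Smad9 and -0.0099 to 0.12 for Tgfbr1. Other reversals were Amhr2 in litter 1 alone (-0.12), Id1 (0.012) and Smad9 (0.027) with sample weights, and Smad6 (0.11) and Smad9 (0.031) with the epithelial covariate. The count of all genes at an unadjusted p under 0.05, 152 as reported, was 600 with the epithelial covariate, 319 in litter 1 alone, 292 with litter as a block, 344 with no filter, 524 with the replicate block and 309 with sample weights, and 68 (without mutant 1) to 325 (without control 1) over the leave-one-out fits, where 0 to 1 passed adjustment (1 without control 1). Pathway genes at that p, 0 of 51 as reported, were 3 with the covariate, 2 in litter 1 alone, 3 with litter as a block and 7 with the replicate block. Over the leave-one-out fits they were 0 to 7 (7 without control 1, 6 without mutant 2). Of all 14444 genes tested, 261 were under that p without mutant 2. With the replicate block, without control 1 and without mutant 2, the share of the 51 was larger than that of all genes. For these changes the cause was not tested. The Bmpr1b fit without a filter, the exon-union lengths and the GENCODE coding lengths were added after the data had been seen.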

Other observations

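A pair of genes from the listed pathway stood apart between litters, in a way chosen after the values were seen. Acvr1c (ALK7), the activin-class type I receptor outside the 8 genes above, had 47, 50, 48 and 58 reads in controls 1 and 2 and mutants 1 and 2, all from litter 1, and 3 reads in each of control 3 and mutant 3, both from litter 2. In RPM it was at 1.55, 1.75, 1.71 and 1.93 in litter 1 and at 0.106 and 0.126 in litter 2. Mstn (myostatin), a ligand of Acvr2b and Acvr2a, had 43, 39, 27 and 42 reads in the same litter 1 libraries and 0 in both litter 2 libraries, where a count of 0 allows up to 0.106 and 0.126 RPM. Their receptor partner Acvr2b showed no such split, with 66 and 56 reads in litter 2 and 65 to 113 in litter 1. Over the whole table, 8 genes were at 0.9 RPM or more in every litter 1 library and at 3 reads or fewer in both litter 2 libraries, and 0 showed the reverse. Both genotypes were found on each side of this split, and with 2 libraries in litter 2 the litter, the animals and the dissection cannot be told apart.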
